A study of Mus musculus with 12 samples.

Results

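Transcripts of B cells and plasma cells were followed in RNA from lymphatic endothelial cells (LECs) of the mouse lung. The group holds 9 genes, Cd79a, Cd79b, Ms4a1, Pax5, Ighm, Igkc, Igha, Jchain and Mzb1, taken by symbol from the GENCODE M21 names of the 52636 gene identifiers that were counted. All 9 passed the filter on low counts that kept 21440 genes for testing.

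LECs were sorted from digested lungs of Prox1-EGFP mice, a transgenic reporter line in which regulatory sequence of the lymphatic transcription factor Prox1 drives a green fluorescent protein. The sort took cells that were positive for CD31 and for the reporter and negative for EpCAM, an epithelial surface protein, and for a cocktail of antibodies to mature blood cell lineages, which is made to remove B cells among others. Mice started at 6 weeks of age and breathed cigarette smoke (CS) in a whole-body chamber or room air (RA), for 8 weeks in the acute arm and 24 weeks or more in the chronic arm. The labels give the acute arm as 8 weeks, under the heading of age, and the chronic arm as Aged. There were 2 acute RA, 2 acute CS, 3 chronic RA and 5 chronic CS libraries, all from the same reporter line, and each is named by the sex and number in its label (F, M, M1 to M4). LECs from 2 to 5 mice were pooled for the acute smoke point according to the methods of the study, and chronic samples were not pooled, so age, exposure length and pooling cannot be told apart between the arms. Nothing shows whether the libraries of a group come from separate experiments, and the p-values measure the spread between these libraries.

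B cells recognise antigen through a membrane immunoglobulin held by the signalling pair CD79A and CD79B. PAX5 keeps the B cell programme running and MS4A1 (CD20) is a B cell surface protein, and both are lost when a B cell turns into a plasma cell. Plasma cells secrete immunoglobulin, with the J chain joining IgA or IgM units into polymers and MZB1 helping IgA and IgM assembly in the endoplasmic reticulum. In airways, polymeric IgA is carried across the epithelium, and smoke-exposed lungs can form lymphoid aggregates next to airways and lymphatics. Each B cell clone joins 1 heavy and 1 light variable segment, so a library whose immunoglobulin reads come from few clones shows few segments.

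The variable segments that led the immunoglobulin reads of some libraries are shown for that reason. Each line gives the last 120 bases of the germline segment, 5′ to 3′, from the GENCODE M21 transcripts on GRCm38. Capitals mark the codons for tyrosine, any amino acid and cysteine, which close the framework before the antigen-binding loop formed by joining (TATNNNTG or TACNNNTG followed by T or C, on the transcript strand). Of 216 annotated variable segments, 98.6% held this pattern in the same window. The first pair led chronic RA F, the next trio chronic CS M1 and M2, and the last pair acute CS F. The kappa segments Igkv8-21 and Igkv9-120 also led room air libraries, chronic RA M2 and acute RA F.
Ighv11-2 (chr12:114048241-114048812, minus strand): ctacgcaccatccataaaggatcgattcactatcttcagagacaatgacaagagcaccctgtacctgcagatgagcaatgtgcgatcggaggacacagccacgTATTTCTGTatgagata
Igkv14-126 (chr6:67896172-67896642, plus strand): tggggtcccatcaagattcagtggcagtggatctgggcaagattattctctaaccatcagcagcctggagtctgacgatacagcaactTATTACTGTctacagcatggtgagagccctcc
Ighv3-6 (chr12:114288152-114288582, minus strand): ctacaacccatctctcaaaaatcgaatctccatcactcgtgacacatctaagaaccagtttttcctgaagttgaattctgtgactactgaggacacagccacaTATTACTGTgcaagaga
Igkv12-46 (chr6:69764523-69765022, minus strand): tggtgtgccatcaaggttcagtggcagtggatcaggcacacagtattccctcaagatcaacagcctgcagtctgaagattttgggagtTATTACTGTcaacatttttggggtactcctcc
Igkv8-21 (chr6:70314895-70315472, minus strand): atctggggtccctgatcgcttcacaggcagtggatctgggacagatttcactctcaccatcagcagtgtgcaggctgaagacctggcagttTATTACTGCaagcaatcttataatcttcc
Ighv1-58 (chr12:115312166-115312599, minus strand): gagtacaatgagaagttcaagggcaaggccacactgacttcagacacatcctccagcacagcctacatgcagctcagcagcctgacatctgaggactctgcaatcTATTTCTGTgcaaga
Igkv9-120 (chr6:68049983-68050456, plus strand): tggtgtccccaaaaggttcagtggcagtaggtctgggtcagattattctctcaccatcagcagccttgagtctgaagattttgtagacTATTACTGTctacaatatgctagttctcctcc

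Levels are in CPM, which express the deposited counts of a gene relative to all counts of its library, after TMM scaling in edgeR. The deepest library was acute RA F with 56998590 counts, where a floor of 3 counts is 0.0507 CPM, and the shallowest chronic CS F with 18821438 counts, where it is 0.158 CPM. The reads carry no molecular identifiers, so floors and intervals cover counting error only. Chronic CS M1 and M2 were nearly as shallow, at 21596654 and 22885446 counts, whereas M3 and M4 held 47494020 and 45436986. The lymphatic marker Prox1 lay between 1042 and 2476 CPM in every library. In bulk RNA, more B lineage cells and more RNA per such cell cannot be told apart.

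Cd79a and Cd79b encode the signalling chains of the B cell receptor. Cd79a (ENSMUSG00000003379, chr7:24897381-24902197, plus strand) was counted in the acute arm at 1.67 CPM (F) and 5.20 CPM (M) without smoke, and at 40.6 CPM (F) and 7.64 CPM (M) with it. In chronic RA it stood at 16.8 CPM in F, 13.7 in M1 and 14.5 in M2, and in chronic CS at 6.41 CPM in F and 11.1, 6.82, 10.2 and 8.84 CPM in M1 to M4. Both acute CS libraries were above both acute RA libraries, and all 5 chronic CS libraries were below all 3 chronic RA libraries. After acute smoke the log2 fold change was 2.81, with a standard error of 0.71 and an edgeR adjusted p of 0.0557. After chronic smoke it was -0.79 (standard error 0.48, edgeR adjusted p = 0.561). Neither passed the limit of 0.05, which applies to p-values that edgeR adjusted over all tested genes after Benjamini and Hochberg.

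Cd79b (ENSMUSG00000040592, chr11:106311341-106314762, minus strand) was at 0.879 and 1.74 CPM in acute RA F and M and at 29.3 and 6.16 CPM in acute CS F and M. It was at 11.8, 4.75 and 9.87 CPM in chronic RA F, M1 and M2. In chronic CS it was at 3.15 CPM in F and 3.04, 12.6, 3.82 and 2.96 CPM in M1 to M4. The acute groups did not overlap, whereas chronic CS M2 lay above every chronic RA library while the other 4 chronic CS libraries lay below all of them. The acute log2 fold change was 3.76 (standard error 0.96, edgeR adjusted p = 0.0604) and the chronic one -0.79 (standard error 0.62, edgeR adjusted p = 0.671). Without chronic CS M2 the chronic log2 fold change was -1.44, and without chronic RA F it was -0.51, with adjusted p-values of 0.407 and 0.896 from edgeR.

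Ms4a1 encodes the B cell surface protein CD20 (ENSMUSG00000024673, chr19:11249675-11266241, minus strand; the predicted gene 4930526L06Rik overlaps it on the other strand). It stood at 0.355 and 1.32 CPM in acute RA F and M and at 23.8 and 5.42 CPM in acute CS F and M. In chronic RA it was at 8.74 CPM in F, 7.29 in M1 and 8.32 in M2, a spread of 0.748 (SD, n = 3) around a mean of 8.11. In chronic CS it was split: 1 count in F and 0 in M1 and M2 against 4.996 CPM in M3 and 4.97 CPM in M4, which rest on 233 and 220 counts. At the chronic RA mean, the depths of chronic CS F, M1 and M2 would have given 155, 184 and 195 counts. Of the 2594 tested genes with a chronic RA mean between 4 and 16 CPM, 0.578%, 1.12% and 3.66% were under 3 counts in these same libraries, against 0.27% and 0.193% in M3 and M4. The chronic groups did not overlap, yet the log2 fold change of -1.99 had a standard error of 1.38 and an adjusted p of 0.62 from edgeR. With M3 and M4, the deeper chronic CS libraries, alone it was -0.70 (edgeR adjusted p = 0.72). With F, M1 and M2 alone the fitted value is set by the zeros and is not given. After acute smoke the log2 fold change was 4.12 (standard error 2.18, edgeR adjusted p = 0.414).

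Pax5, the transcription factor gene that commits cells to the B lineage (ENSMUSG00000014030, chr4:44524757-44710487, minus strand, with 4 short overlapping genes in the annotation), was the least counted of the 9. It had 2 and 6 counts in acute RA F and M, and 175 and 8 in acute CS F and M. Chronic RA held 15, 26 and 20 counts in F, M1 and M2. Chronic CS had 0, 0 and 1 counts in F, M1 and M2 and 28 and 17 in M3 and M4, so the libraries with at most 1 Ms4a1 read were those with at most 1 Pax5 read. At the chronic RA mean the depths of these 3 libraries would have given 12, 14 and 15 Pax5 counts. The chronic log2 fold change was -1.47 (standard error 1.27, edgeR adjusted p = 0.702), and -0.30 with chronic CS M3 and M4 alone. The acute one was 4.56 (standard error 2.05, edgeR adjusted p = 0.309). The same 3 chronic CS libraries still held Cd79a at 122, 251 and 164 counts. Cd22, a B cell inhibitory receptor gene, was at 2.10 CPM in F and at 0 in M1 and M2. Further B cell genes were mixed in these libraries. Cxcr5 was at 0 in all 3, whereas Siglecg stood at 1.52, 4.36 and 7.61 CPM in F, M1 and M2. In M3 and M4 Siglecg was at 3.86 and 1.56 CPM. The T cell genes Cd4 and Cd8a were also at 0 in M1 and M2.

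**Figure D1:**
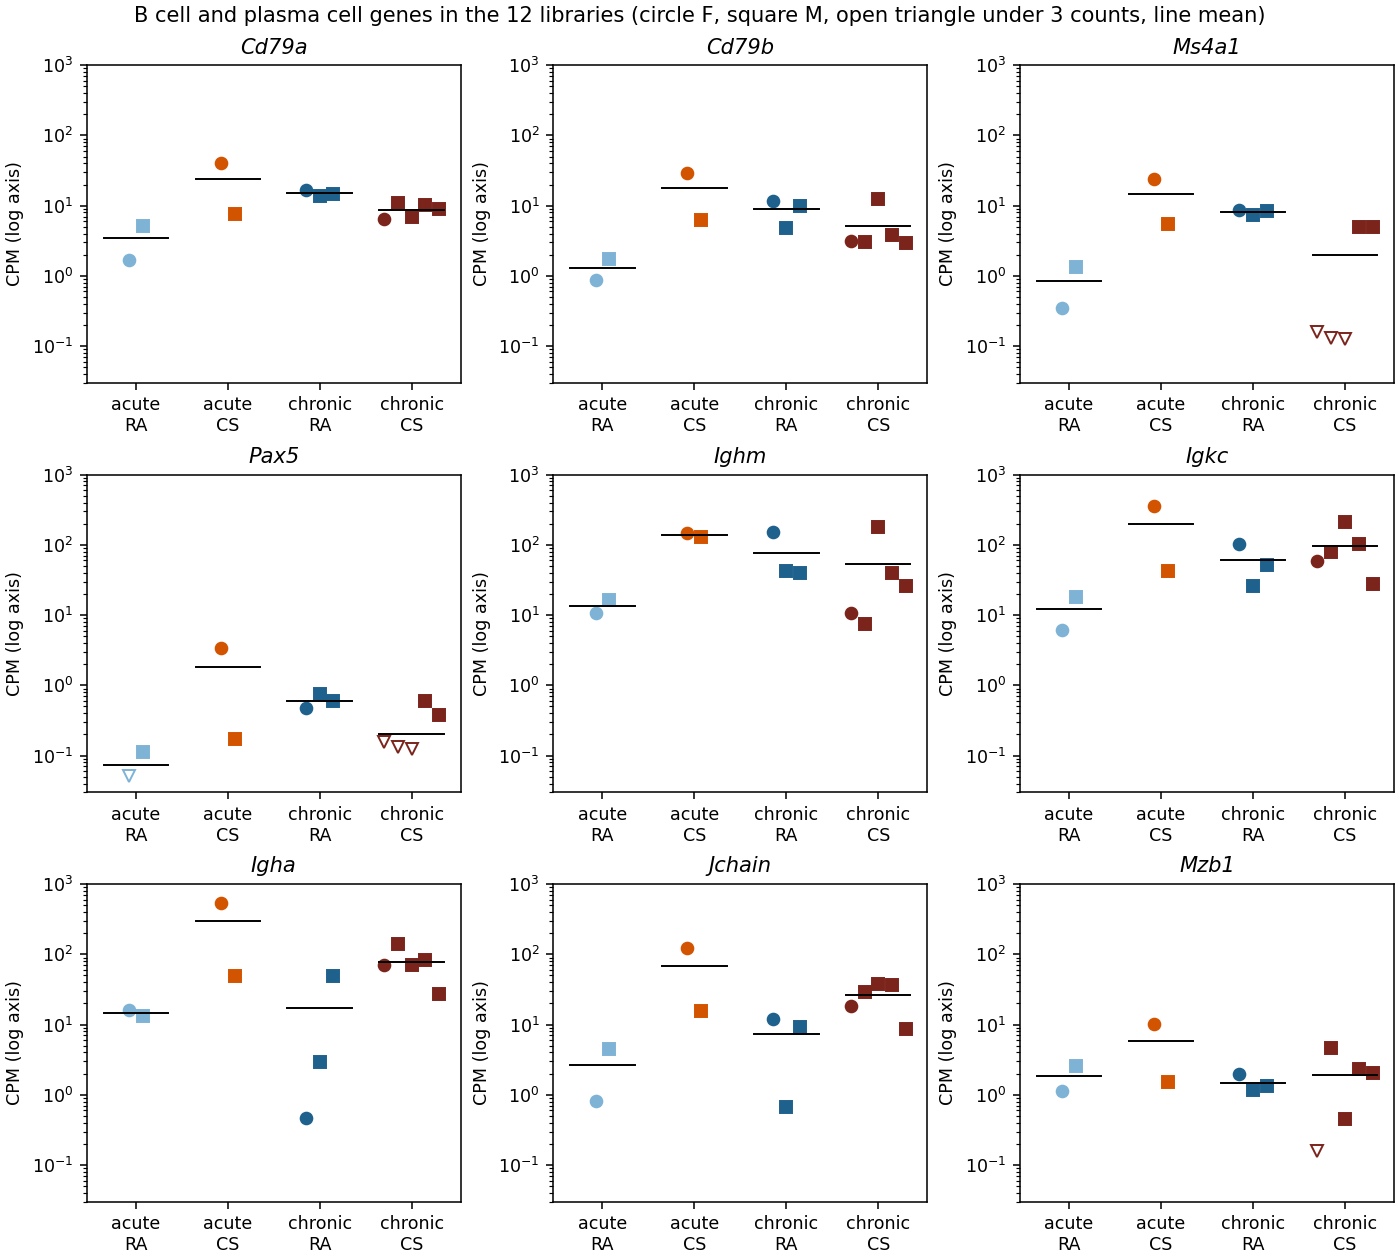
Expression of the 9 genes in CPM on a log axis, 1 panel per gene, by group; circles are F and squares M libraries, open triangles stand at the 3-count floor of libraries under 3 counts, and lines are group means. Acute CS F is the highest of the 4 acute libraries for all 9 genes, Ms4a1 is under 3 counts in 3 of 5 chronic CS libraries, and Igha ranges from 0.470 to 49.0 CPM in chronic RA.

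Ighm, Igkc and Igha encode constant regions, of the IgM heavy chain, the kappa light chain and the IgA heavy chain. Ighm (ENSMUSG00000076617, chr12:113418558-113422730, minus strand) was at 10.9 and 16.4 CPM in acute RA F and M and at 145.8 and 130.0 CPM in acute CS F and M. As a ratio, the 2 acute CS libraries lay closer together for Ighm than for any other of the 9 genes. In chronic RA it stood at 151.1 CPM in F, 41.9 in M1 and 39.3 in M2, and in chronic CS at 10.9 CPM in F and 7.44, 179.3, 40.3 and 25.6 CPM in M1 to M4. Chronic RA F and chronic CS M2 were far above the others of their groups, and the chronic groups overlapped. The acute log2 fold change was 3.34 (standard error 1.33, edgeR adjusted p = 0.239). The chronic one was -0.56 (standard error 0.87, edgeR adjusted p = 0.848), and it was 0.38 without chronic RA F and -1.87 without chronic CS M2.

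Igkc (ENSMUSG00000076609, chr6:70726435-70726966, plus strand, within the predicted gene Gm30211 on the same strand) was at 6.15 and 18.3 CPM in acute RA F and M and at 357.3 and 42.3 CPM in acute CS F and M. Chronic RA libraries held 101.9 CPM in F, 26.4 in M1 and 51.9 in M2. Chronic CS libraries held 58.2 CPM in F and 79.7, 213.3, 102.0 and 27.9 CPM in M1 to M4. The acute groups did not overlap and the chronic groups did. The acute log2 fold change was 4.03 (standard error 1.15, edgeR adjusted p = 0.0919) and the chronic one 0.68 (standard error 0.76, edgeR adjusted p = 0.777). The chronic value was 1.30 without chronic RA F, 0.33 without chronic RA M1 and 0.16 without chronic CS M2.

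Igha (ENSMUSG00000095079, chr12:113254830-113260236, minus strand) was at 16.3 and 13.2 CPM in acute RA F and M and at 543.3 and 49.5 CPM in acute CS F and M. In chronic RA it ranged from 0.470 CPM in F through 2.94 in M1 to 49.0 in M2. In chronic CS it was at 69.7 CPM in F and 140.1, 70.9, 82.2 and 26.9 CPM in M1 to M4, so that 4 of the 5 were above every chronic RA library. The acute log2 fold change was 4.33 (standard error 1.66, edgeR adjusted p = 0.222). The chronic one was 2.16 (standard error 1.17, edgeR adjusted p = 0.52), and without chronic RA M2 it was 5.51 with an adjusted p of 0.536. On the FPKM scale, which divides by exon length, Igkc was the highest of the 9 genes in all 12 libraries, with Ighm nearest to it in acute CS M, at 68.9 FPKM beside 79.5 FPKM of Igkc.

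Jchain and Mzb1 act in antibody secretion. Jchain (ENSMUSG00000067149, chr5:88519809-88527891, minus strand) was at 0.828 and 4.50 CPM in acute RA F and M and at 122.9 and 15.5 CPM in acute CS F and M. In chronic RA it was at 12.03 CPM in F, 0.662 in M1 and 9.18 in M2, and in chronic CS at 18.2 CPM in F and 29.1, 37.5, 36.5 and 8.75 CPM in M1 to M4. As for Igha, 4 of the 5 chronic CS libraries were above every chronic RA library, and M4 was the one that was not. The acute log2 fold change was 4.70 (standard error 1.38, edgeR adjusted p = 0.1). The chronic one was 1.84 (standard error 0.93, unadjusted p = 0.0744, edgeR adjusted p = 0.492).

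Mzb1 (ENSMUSG00000024353, chr18:35647267-35649367, minus strand, overlapping SPATA24 on the same strand) was at 1.13 and 2.61 CPM in acute RA F and M and at 10.03 and 1.54 CPM in acute CS F and M. In chronic RA it was at 1.97, 1.15 and 1.34 CPM in F, M1 and M2. In chronic CS it had 0 counts in F and stood at 4.71, 0.457, 2.34 and 2.04 CPM in M1 to M4. It was the 1 gene of the 9 whose acute groups overlapped. The log2 fold changes were 1.63 after acute (standard error 1.502, edgeR adjusted p = 0.718) and 0.36 after chronic smoke (standard error 1.09, edgeR adjusted p = 0.929).

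Across the acute comparison, 0 of the 9 genes passed the adjusted limit in edgeR, beside 2.75% of all tested genes called higher. At an unadjusted p under 0.05, 7 of 9 were counted, against 15.7% of all tested genes. DESeq2 called 4 of the 9 (Cd79a, Cd79b, Igkc and Jchain), against 10% of the genes to which it gave an adjusted p. All 9 log2 fold changes were positive with a median of 4.03, against 0.04 over all tested genes. Groups did not overlap, with CS higher, for 8 of 9 genes and for 27.4% of all tested genes. Each of these log2 fold changes was smaller without acute CS F, although that of Ighm stayed close to its value. Without that library the log2 fold changes were 1.15 for Cd79a, 2.23 for Cd79b, 2.69 for Ms4a1 and 1.21 for Pax5. They were 1.79 for Igkc, 1.75 for Igha, 2.54 for Jchain, -0.28 for Mzb1 and 3.26 for Ighm. Such a fit leaves an acute group without replicates, so its calls are not given.

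Leukocyte genes moved with this difference. Of 5 pan-leukocyte genes, all 5 rose after acute smoke, among them Coro1a and Rac2, which act on the actin cytoskeleton of blood cells (log2 fold changes 3.98 and 4.22, edgeR adjusted p = 0.00166 and 0.00364). The summed level of these genes was 77.2 to 83.2 CPM in acute RA and 1022 to 1312 CPM in acute CS. T and NK cell genes rose for 7 of 17, and their sum went from a range of 47.8 to 56.7 CPM to one of 303 to 611 CPM. Macrophage genes rose for 4 (Cd68, Itgax, Ctss and Ear2) and fell for 1 (Mrc1) of 9, with sums of 991 to 1107 CPM in acute RA and 4181 to 6871 CPM in acute CS. The pan-leukocyte marker Ptprc was at 19.8 and 19.6 CPM in acute RA and at 284.6 and 154.1 CPM in acute CS, and the macrophage gene Chil3 at 86.6 and 31.2 CPM against 1314 and 1355 CPM. Cd3e, a T cell receptor chain gene, was at 2.04 CPM in both acute RA libraries and at 13.5 and 47.2 CPM in acute CS F and M, so its higher library was M where that of the B lineage genes was F. Siglech, a plasmacytoid dendritic cell gene, was at 0 and 0.246 CPM in acute RA and at 5.59 and 0.0217 CPM in acute CS F and M. The plasmacytoid list, with 0 of 5 genes called, had 4 positive log2 fold changes, a median of 2.16 and 3 genes higher without overlap. Its summed level of 17.7 to 68.3 CPM in acute RA and 14.6 to 22.6 CPM in acute CS was mostly that of Klk1 in acute RA, at 66.3 and 15.9 CPM there against 2.81 and 10.4 CPM in acute CS F and M. Epcam, the epithelial gate marker, was at 0.929 and 1.51 CPM in acute RA and at 16.1 and 2.30 CPM in acute CS F and M. Of 7 lymphatic endothelial genes, 2 fell (Prox1 and Flt4), 6 were lower without overlap, and Lyve1 was higher without overlap (442.5 and 535.7 CPM in acute RA, 568.2 and 985.8 CPM in acute CS F and M). Their sums were 13510 to 15240 CPM in acute RA and 5904 to 9073 CPM in acute CS, with Mmrn1 the largest part, at 6937 and 7741 CPM against 2562 and 4375 CPM. The share of all tested genes lower without overlap in this comparison was not counted. Among the lymphatic genes lower without overlap, Ccl21a rested on 4 and 10 counts in acute CS F and M. Of the remaining lists, 4 of 7 blood endothelial and 1 of 9 epithelial genes (Hopx) rose, while 0 of 6 neutrophil and 0 of 5 tested erythroid genes were called. Acute CS F stood apart on the neutrophil list, with a sum of 1185 CPM against 25.6 CPM in acute CS M and 10.9 to 29.5 CPM in acute RA. On the epithelial list it had 8632 CPM, against 263.1 CPM in acute CS M and 1059 to 1842 CPM in acute RA. Acute CS M stood apart on the erythroid list, with 697.8 CPM against 10.7 CPM in acute CS F and 37.7 to 69.9 CPM in acute RA. All 5 tested erythroid genes were positive, with a median of 2.61. The part of these shifts in the B cell and plasma cell values was not tested.

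Other genes of the lineage were read from lists of genes that are no members. Of 24 other B cell genes, 1 rose after acute smoke, the tyrosine kinase gene Btk (log2 fold change 4.89, edgeR adjusted p = 0.0217), which myeloid cells also use. The log2 fold change was positive for 23 of the 24, with a median of 3.06. Of 16 genes of B cell receptor signalling, 7 rose, led by Pik3cd, Vav1, Fcgr2b and Btk, all of which are also used by T cells or myeloid cells. Pik3cd encodes a phosphoinositide 3-kinase subunit of leukocytes and was at 7.84 and 5.15 CPM in acute RA against 82.2 and 39.6 CPM in acute CS F and M (log2 fold change 3.23, edgeR adjusted p = 0.00535). Of 10 other plasma cell genes, 1 rose, Txndc5, a protein disulfide isomerase gene that is not restricted to plasma cells, from 104.3 and 103.8 CPM in acute RA to 205.1 and 188.9 CPM in acute CS F and M (log2 fold change 0.92, edgeR adjusted p = 0.0124). The log2 fold change was positive for 8 of the 10, with a median of 0.83. Without overlap, 6 were higher, beside 27.4% of all tested genes, and 1 was lower. Among the higher was Prdm1, at 4.90 and 6.47 CPM in acute RA and 54.7 and 17.7 CPM in acute CS F and M. Sdc1 was the lower one, at 140.5 and 141.9 CPM against 83.0 and 86.7 CPM. Tnfrsf17, the plasma cell receptor BCMA, never exceeded 0.914 CPM and was at 0 in all 3 chronic RA libraries.

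Of 13 genes of lymphoid follicles, 9 could be tested and 1 rose after acute smoke, the homing receptor gene Ccr7, from 14.6 and 2.80 CPM in acute RA to 79.4 and 61.5 CPM in acute CS F and M (log2 fold change 3.02, edgeR adjusted p = 0.0243). Rgs13, a germinal centre gene, had no counts outside chronic CS M1, where it stood at 0.264 CPM. Cxcl13, the chemokine that draws B cells into follicles, was at 0 in acute RA, at 1.26 and 1.61 CPM in acute CS F and M, at 1.07, 0.49 and 0.268 CPM in chronic RA and at 0 to 1.22 CPM in chronic CS.

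After chronic smoke, 0 of the 9 genes passed in edgeR, as did 0% of all tested genes. None had an unadjusted p under 0.05, against 10.9% of all tested genes, and DESeq2 called none of the 9, against 3.37% of the genes to which it gave an adjusted p. The log2 fold changes were positive for 4 and negative for 5 genes, with a median of -0.56 against 0.01 over all tested genes. Cd79a, Cd79b, Ms4a1, Pax5 and Ighm were on the negative side, and Igkc, Igha, Jchain and Mzb1 on the positive side, each within 2 standard errors of 0. Ighm changed side without chronic RA F (0.38) and Mzb1 without chronic CS M1 (-0.26). Cd79a and Ms4a1 were the 2 genes of 9 whose groups did not overlap, both with CS lower, as were 5.49% of all tested genes. None of the 9 was without overlap and higher in CS, against 3.92% of all tested genes. Among the 24 other B cell genes, 20 had a negative log2 fold change, with a median of -0.97, and 5 were lower without overlap. Their summed level was 127.3 to 147.2 CPM in chronic RA and 78.3 to 120.5 CPM in chronic CS. None of them was called. Among the 2 of highest level was Ebf1, an early B lineage factor also made by stromal cells, at 45.5 to 66.1 CPM in chronic RA and 22.8 to 68.2 CPM in chronic CS. Of the plasma cell genes that are no members, 0 of 10 were called, 7 were positive and the median was 0.36. Sums of the pan-leukocyte genes were 68.9 to 124.7 CPM in chronic RA and 74.8 to 233.0 CPM in chronic CS, and those of the T and NK cell genes 47.8 to 85.8 and 76.4 to 108.0 CPM. Of 9 macrophage genes, 8 were positive, with sums of 727.8 to 1056 CPM in chronic RA and 923.1 to 2389 CPM in chronic CS. All 5 tested erythroid genes were negative, with a median of -1.44 and 0 without overlap. Their sums were 196.1 to 431.9 CPM in chronic RA and 9.69 to 348.6 CPM in chronic CS. Of 9 epithelial genes, 7 were higher without overlap in chronic CS and 0 were called, with sums of 249.7 to 509.1 CPM in chronic RA and 1170 to 4982 CPM in chronic CS. Of 6 neutrophil genes, 5 were higher without overlap and 0 were called, with sums of 15.3 to 20.1 CPM and 27.4 to 158.8 CPM. The part of these shifts in the values of Igha, Jchain and the other members was not tested.

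**Figure D2:**
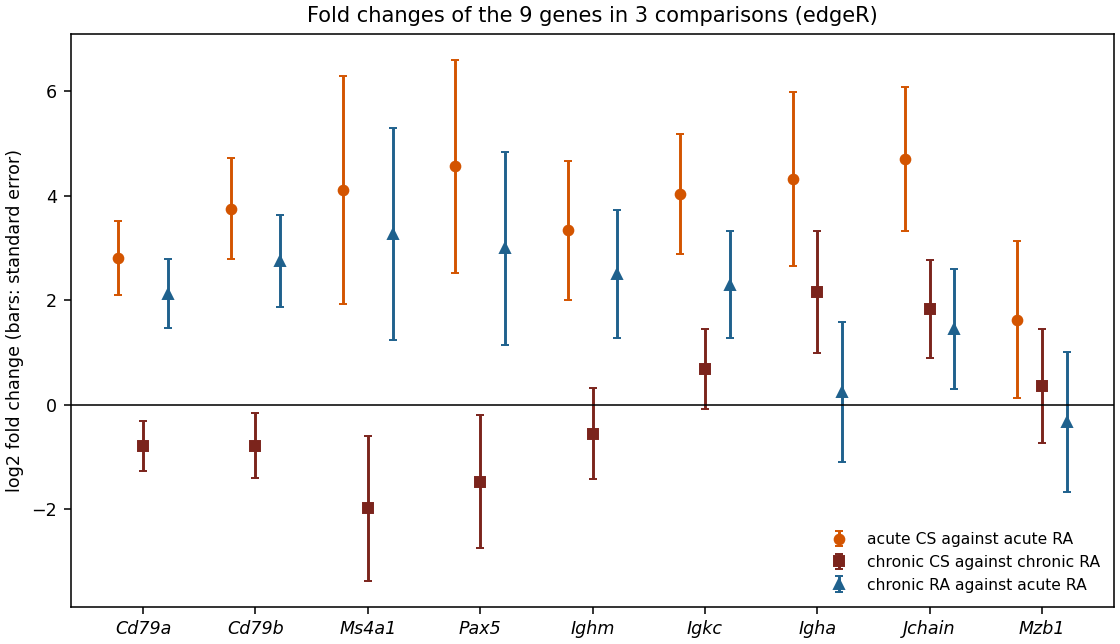
Log2 fold changes of the 9 genes from edgeR with standard errors as bars, for acute CS against acute RA (circles), chronic CS against chronic RA (squares) and chronic RA against acute RA (triangles). All 9 acute values are above 0 with a median of 4.03, and the 9 chronic values lie between -1.99 and 2.16. The circles and triangles share the acute RA libraries, and the squares and triangles the chronic RA libraries.

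Room air libraries of the 2 arms were compared without smoke. This comparison uses the same acute RA and chronic RA libraries as the smoke comparisons. None of the 9 genes passed in edgeR, as did 0% of all tested genes, whereas 3 had an unadjusted p under 0.05 (Cd79a, Cd79b and Igkc), against 7.01% of all tested genes. DESeq2 called 2 of the 9 (Cd79a and Cd79b), against 1.58% of the genes it gave an adjusted p. Cd79a averaged 3.44 CPM with an SD of 2.50 (n = 2) in the younger controls and 15.01 CPM with an SD of 1.59 (n = 3) in the older ones. This was a difference of 2.13 in log2 (standard error 0.66, edgeR adjusted p = 0.546). Ms4a1 averaged 0.84 CPM with an SD of 0.686 and 8.11 CPM with an SD of 0.748, a difference of 3.27 in log2 (standard error 2.03, edgeR adjusted p = 0.77). Chronic RA was higher without overlap for 6 of 9 genes, against 17.7% of all tested genes. The 3 whose groups overlapped were Igha, Jchain and Mzb1. Of the 24 other B cell genes, 23 were positive and 15 higher without overlap in chronic RA. All 5 tested erythroid genes were positive, 4 of them without overlap, with a median of 2.60 and sums of 37.7 to 69.9 CPM in acute RA and 196.1 to 431.9 CPM in chronic RA. All 9 epithelial genes were negative, 4 of them without overlap, with sums of 1059 to 1842 CPM and 249.7 to 509.1 CPM. The share of all tested genes lower without overlap was not counted here. Of 7 lymphatic endothelial genes, 6 were positive and 5 were higher without overlap, with sums of 13510 to 15240 CPM in acute RA and 18530 to 21260 CPM in chronic RA. No gene of these lists was called, and the part of these shifts in the members' values was not tested.

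The smoke effect in the acute arm was compared with that in the chronic arm by the interaction of the fit, which uses all 4 groups and so shares libraries with each comparison above. None of the 9 genes passed, against 0.452% of all tested genes. An unadjusted p under 0.05 was found for 6 of the 9 and for 11.9% of all tested genes. DESeq2 called 2 of the 9 (Cd79a and Cd79b) and 5.37% of the genes with an adjusted p. The acute minus the chronic effect was 3.60 on the log2 scale for Cd79a (standard error 0.85, edgeR adjusted p = 0.0972) and 4.54 for Cd79b (standard error 1.13, edgeR adjusted p = 0.112). For Igha and Jchain it was 2.17 and 2.87, with adjusted p-values of 0.719 and 0.498 from edgeR. Without chronic CS M2, edgeR called Cd79b. Without acute CS F, which leaves that group without replicates, the difference was 1.95 for Cd79a and 3.02 for Cd79b. It was 1.12 for Igkc (3.35 with all libraries), 0.71 for Jchain and -0.41 for Igha.

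The heavy chain classes set the libraries apart. Igha made up 60.1% of the Igha and Ighm reads in acute RA F (95% exact binomial interval 57.6 to 62.5%) and 44.6% in acute RA M. After acute smoke it was 78.8% in F but 27.6% in M, on either side of the acute RA libraries. In chronic RA F it was 0.31% (0.174 to 0.511%, 15 of 4838 reads), in M1 6.55% and in M2 55.5%. In chronic CS it was 86.5% in F and 94.96%, 28.3%, 67.1% and 51.3% in M1 to M4. Chronic CS thus lay between 28.3 and 94.96% and chronic RA between 0.31 and 55.5%, with overlap. The shares are of reads and are not corrected for the unequal exon lengths of 2668 bases for Igha and 1886 bases for Ighm, which are the same in every library.

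**Figure D3:**
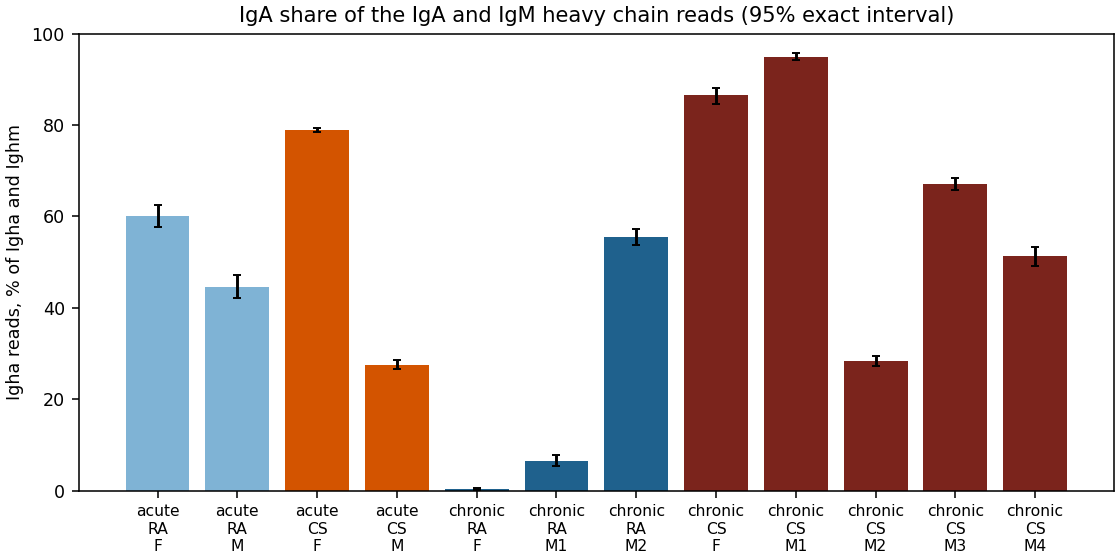
Share of Igha reads among the Igha and Ighm reads of each library, in percent from 0 to 100, coloured by group, with 95% exact binomial intervals. Chronic RA F is at 0.31% and chronic RA M1 at 6.55%, and 4 of 5 chronic CS libraries are above 50%.

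The other constant regions were mostly low. Ighd, the IgD heavy chain gene that naive B cells express with Ighm, was at 1.96 and 2.02 CPM in acute RA and 26.0 and 3.60 CPM in acute CS F and M. It was at 11.9, 12.3 and 8.46 CPM in chronic RA F, M1 and M2 and between 2.05 and 8.28 CPM in chronic CS, lower without overlap (log2 fold change -1.33, edgeR adjusted p = 0.431). The lambda light chain genes Iglc1 and Iglc3 were also lower in chronic CS without overlap. Iglc1 was at 0.835 to 1.75 CPM in chronic RA and 0 to 0.588 CPM in chronic CS, and Iglc3 at 1.55 to 2.22 and 0.572 to 1.29 CPM. These 3 of 10 tested constant genes stand beside 5.49% of all tested genes. The IgG genes Ighg1, Ighg2b, Ighg2c and Ighg3 had no counts in acute RA and were at or under 3.34 CPM elsewhere, apart from Ighg2c at 22.6 CPM in chronic CS M3. Ighe, the IgE gene, was found in acute CS F alone, at 0.609 CPM. Of the 12 constant genes, 10 could be tested, and 1 rose after acute smoke, the lambda gene Iglc3, from 0.152 and 0.246 CPM in acute RA to 5.28 and 0.846 CPM in acute CS (log2 fold change 3.93, edgeR adjusted p = 0.0368). The lambda genes and the IgG genes have close copies of one another, so their reads may be split or lost in counting. The kappa share of light chain constant reads ranged from 71.7% in chronic CS M1, where Iglc2 stood at 30.9 CPM, to 98.0% in chronic CS F.

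Variable segments were counted as a view of how many rearranged sequences the reads come from. Among 113 heavy, 100 kappa and 3 lambda segments, 20 and 29 had at least 3 reads in acute RA F and M, and 127 and 46 in acute CS F and M. Chronic RA held 75 in F, 72 in M1 and 53 in M2, and chronic CS 20 in F and 21, 24, 60 and 51 in M1 to M4. After thinning every library to the smallest total count, 10 and 16 remained in acute RA, 101 and 33 in acute CS, 52, 49 and 39 in chronic RA, and 20, 19, 24, 33 and 28 in chronic CS. The thinning equalises the total counts but not the immunoglobulin reads, which for variable segments were 26.8 CPM in chronic RA M1 and 178.8 CPM in chronic CS M2. After it every chronic CS library had fewer segments than every chronic RA library, while without thinning chronic CS M3 overlapped chronic RA M2. No test was run on these numbers.

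In chronic RA F, Ighv11-2 took 45.8% of heavy chain variable reads (42.5 to 49.1%) and Igkv14-126 took 45.2% of kappa variable reads (43.1 to 47.4%). Their levels there were 12.9 and 28.8 CPM, with at most 0.0298 CPM of Igkv14-126 and no Ighv11-2 in the other chronic RA libraries. These segments, printed first above, are known as the pair of a recurrent IgM receptor of B-1 cells, and the same library had the lowest Igha share. A second kappa segment, Igkv4-57, was at 21.6 CPM in chronic RA F and at or below 0.144 CPM in the other chronic RA libraries.

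In chronic CS M2, Igkv12-46 stood at 85.1 CPM and took 67.3% of kappa variable reads, and Ighv3-6 stood at 31.4 CPM and took 60.0% of the heavy ones. Chronic CS M1 was also led by Ighv3-6, at 14.5 CPM and 41.2%, but by Igkv8-21 among the kappa segments, at 25.2 CPM and 56.6%. Igkv8-21 also led the kappa reads of chronic RA M2, with 34.7%. In acute CS F, which had the most immunoglobulin reads, the leading Ighv1-58 took 26.2% and Igkv9-120 took 16.8%, at 45.8 and 25.9 CPM. Igkv9-120 led the kappa reads of acute RA F too, with 40.4%, on 63 reads. The lowest shares were in chronic RA M1, where Ighv9-3 led with 10.3% (7.08 to 14.2%) of 302 heavy chain reads. The highest heavy share was in acute RA F, where Ighv1-18 took 72.6% of 270 reads.

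**Figure D4:**
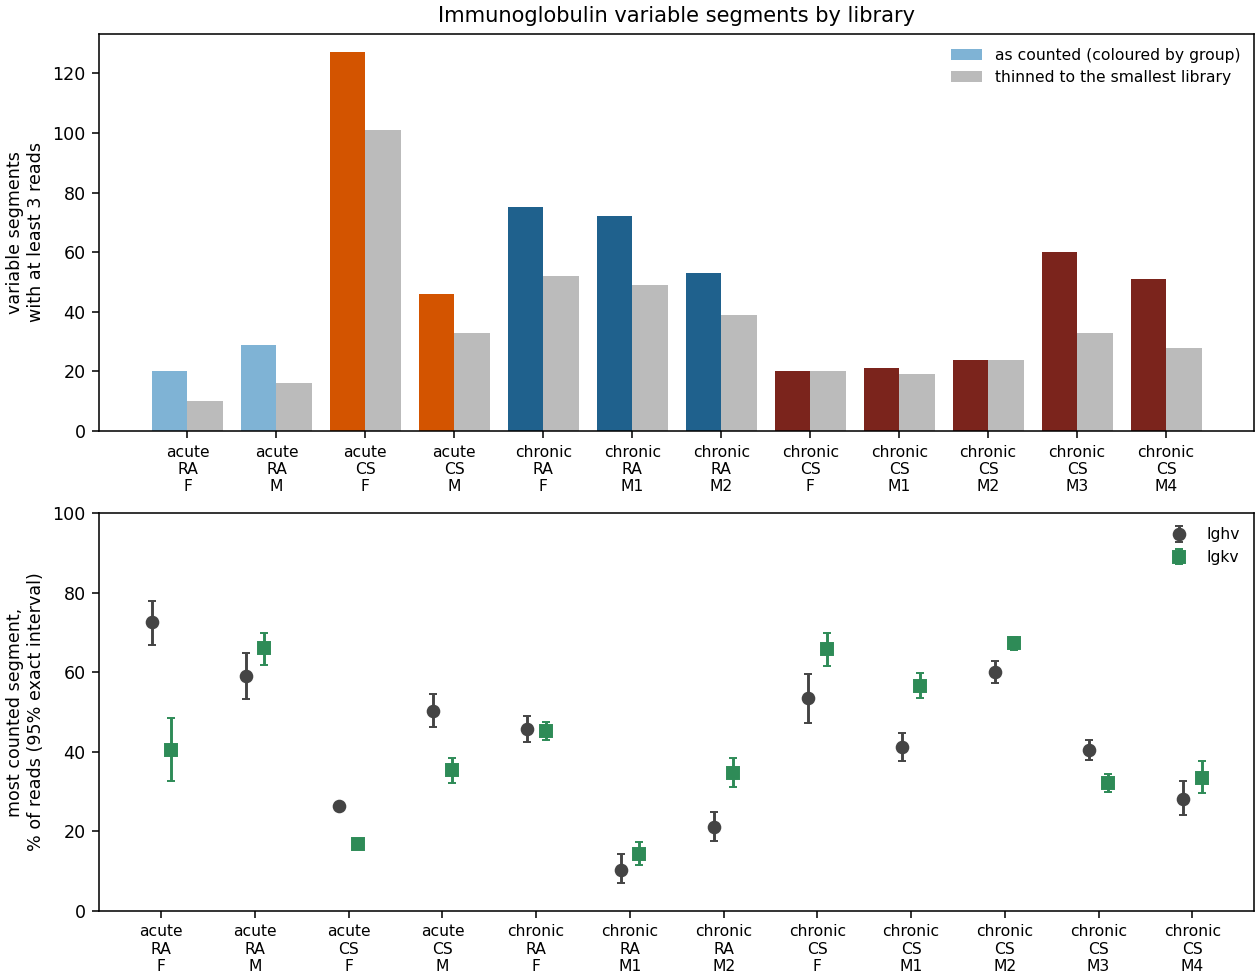
Upper panel, number of variable segments with at least 3 reads in each library, as counted (coloured by group) and after thinning to the smallest library (grey). Lower panel, share of heavy (Ighv, circles) and kappa (Igkv, squares) variable reads held by the most counted segment, in percent with 95% exact binomial intervals. Acute CS F has 127 segments and chronic CS F has 20, and the leading share is lowest in chronic RA M1.

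Genes with the most similar profiles were found by the root mean square difference of log2 CPM, centred on each gene's mean, over the 12 libraries. For Cd79a they included Ly6d at 0.417, Cyp4b1 at 0.475, Pf4 at 0.535 and Gp1bb at 0.562, where Cd79a itself varied by 1.05 around its mean. Ly6d is a B lineage gene, Cyp4b1 is a cytochrome P450 gene, and Pf4 and Gp1bb are platelet genes. For Jchain, which varied by 2.08, the nearest were Ttll7 at 0.917, Scrn1 at 0.971, Rasgrp4 at 1.07, Higd1b at 1.09 and Apbb1ip at 1.09. The 12 libraries share 4 groups, so that any gene following the groups comes close.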

How the data were processed

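RNA of LECs sorted from mouse lungs was sequenced in 12 libraries prepared with a SMART-Seq v4 low-input kit, which does not mark strand. The deposited values are raw counts of reads per Ensembl gene, without normalization, which the authors made after quality control with FastQC 0.11.9 by trimming with Skewer, filtering with Minion within the DEE2 workflow, and alignment to GRCm38 with the GeneCounts mode of STAR. That mode leaves out reads that map to several places, which affects near-identical immunoglobulin genes. The annotation release and the strand column used are not given in the sources used here.

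Groups came from the labels. Names, positions and exon lengths came from GENCODE M21, and 147 identifiers were not found there. Tests were run with edgeR 4.0.16 (DESeq2 1.42.0 as an alternative) under R 4.3.3. Other steps used Python 3.11.15, pandas 2.3.3, scipy 1.17.1 and matplotlib 3.10.9. The filterByExpr function kept 21440 genes. A single quasi-likelihood model in edgeR held the 4 groups, scaled by TMM, and its F-tests were adjusted over all tested genes after Benjamini and Hochberg with a limit of 0.05. CPM use the TMM factors, and FPKM divide them by the union of exons. Variable segments with at least 3 reads were counted, also after thinning, and shares have exact binomial 95% intervals. No 2 libraries of a group agreed within sampling noise (the median chi-square per gene was at least 6.34, against 0.455 under sampling noise).

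The members and lists were chosen with earlier results of these data known. Text names every member, at most 4 called genes per list (or, with none called, up to 2 of the highest level), all immunoglobulin constant genes, the 3 most counted variable segments of each group, 5 genes with the nearest profile to Cd79a and to Jchain, and the markers Ptprc, Cd3e, Chil3, Siglech, Epcam and Prox1. Cd22, Cxcr5, Siglecg, Cd4, Cd8a, Prdm1, Sdc1, Tnfrsf17, Rgs13, Cxcl13, Klk1, Lyve1, Mmrn1, Ccl21a and Ighv9-3 were named after their values were seen. The count of genes under 3 reads at the level of Ms4a1 was also added then. Alternatives were DESeq2, library size scaling, no filter, fits of the compared groups alone, a term for sex, robust estimation, a replicate block, each library left out, and the chronic CS libraries split by depth. Cultured cells, stained tissue and human data of the study were not analysed here. Some genes that the rule would name are not reported here.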

Additional observations from a re-analysis of the deposited data

Results flagged for a closer look

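Among 19 sets of 5 chronic CS values (the members, the other immunoglobulin constant genes and the number of variable segments), 5 had a highest library far from the rest by Dixon's ratio at its 95% critical value. Chance passes that value in about 1 of 20 groups of normally distributed values, whereas the ratio was taken here on untransformed values. Ighg1 and Ighe, at 0 in all 5 libraries, could not be flagged. The number of flags is therefore not set against that rate. Cd79b was at 12.6 CPM in chronic CS M2, where the other libraries were at 2.96 to 3.82 CPM. Ighm was at 179.3 CPM in the same library, against 7.44 to 40.3 CPM. Ighg2c was at 22.6 CPM in chronic CS M3, Ighg3 at 0.701 CPM in chronic CS M4, where the other 4 libraries had no Ighg3 counts, and Iglc2 at 30.9 CPM in chronic CS M1. Where the other 4 libraries are all at 0, as for Ighg3, the zeros fix the ratio and the rate of 1 in 20 does not apply. Ighg2c was close to this, at 0 in F, M1 and M2 and 0.701 CPM in M4.

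Cd79a and Ms4a1 lay on opposite sides of their controls in the arms: every acute CS library was above every acute RA library, and every chronic CS library below every chronic RA library. The acute minus the chronic effect was 3.60 on the log2 scale for Cd79a and 6.11 for Ms4a1. The test of the difference did not pass for either, with edgeR adjusted p-values of 0.0972 and 0.388.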

How the results depend on the processing

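The count of members called was 0 in each comparison, and it stayed 0 with library size scaling, sex as a covariate, robust estimation and the split of the chronic CS libraries. With DESeq2 it was 4 in the acute comparison, 2 between room air groups and 2 for the interaction. Without the filter it was 4 in the acute comparison, and with only the groups compared 1 (Ighm, edgeR adjusted p = 0.037). Without chronic CS M2 it was 1 for the interaction (Cd79b). Fits that leave an acute group without replicates are given by effect size alone. A replicate block by the sex and number of the labels called 0 members, 73 genes in all in the acute comparison and 0 for the interaction. Chronic CS M3 and M4 have no room air partner under this block, so its chronic effects rest on F, M1 and M2. With the block the chronic value of Mzb1 was -1.46 and the interaction of Igha -0.96. Deviations of same-numbered libraries correlated at -0.0419 to 0.0693. In acute groups of 2 the deviations mirror each other, so F and M give the same value, 0.0693. The check therefore cannot settle whether the libraries are paired.

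Leaving out 1 library turned the sign of some values, and their lowest and highest values were -0.28 and 2.42 for Mzb1 and the acute comparison, -0.81 and 0.38 for Mzb1 between room air groups, -0.26 and 0.68 for Mzb1 and -1.87 and 0.38 for Ighm in the chronic comparison, -3.11 and 0.80 for Igha between room air groups, and -1.21 and 3.05 for Igha and -0.64 and 2.06 for Mzb1 in the interaction. The cause was not tested.

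Over all genes, calls numbered 745 in the acute comparison, and 2009 with DESeq2 and 139 with only the groups compared. In the chronic comparison they numbered 0, and 595 with DESeq2, 10 without the filter, 1 with chronic CS F, M1 and M2, 16 with M3 and M4, and 0 to 4 without 1 library. Between room air groups they numbered 0, and 279 with DESeq2, 6 without the filter and 42 with only the groups compared. For the interaction they numbered 97, and 979 with DESeq2, 191 without the filter and 21 with sex as a covariate. At 3 counts or fewer, where Pax5, Ms4a1 and the IgG genes stood in several libraries, a level cannot be told from the floor.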
